A study of Mus musculus with 21 samples.

Results

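Lung epithelial cells and lung fibroblasts of mouse embryos at E18.5, the day before birth, were compared with each other gene by gene. All libraries that the labels place in these 2 groups were taken, 2 epithelial and 2 fibroblast libraries, which are 4 of the 21 libraries of the series. The other libraries cover P0.5, P2, P7, P28 and, for fibroblasts alone, P56. They serve here to estimate the spread between replicates and to show where E18.5 departs from later stages. Both groups came from C57BL/6 embryos carrying a Col1a2-GFP transgene, in which the promoter of a collagen gene drives a green fluorescent protein, so the reporter is present in the epithelial donors as well. Epithelial cells had been sorted as Epcam-positive and negative for CD31, CD45, CD146 and Ter119. Fibroblasts had been sorted as negative for these lineage markers and for Epcam and positive for GFP. The protocol adds a GFP-negative gate to the epithelial sort in general, but the E18.5 epithelial label does not name it. A GFP gate admits only cells in which the transgene is active, so the fibroblast libraries need not cover all mesenchymal cells. No label says whether lungs were pooled or whether replicates came from separate litters, so a p-value here reflects how far these particular libraries spread, and that spread may be technical.

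Shortly before birth the epithelium of the distal airways flattens into alveolar type 1 cells, which form the gas exchange surface, and matures into alveolar type 2 cells, which make surfactant, the lipid and protein film that keeps air spaces open. The fibroblasts beneath it lay down collagen and elastin, store lipid and produce growth factors. Each tissue sends signals that the other receives, with Sonic hedgehog and PDGF-A as textbook signals from epithelium to mesenchyme and FGF10 as a signal in the reverse direction.

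RNA was measured with 3'SAGE-seq, a method that reads 1 short tag from the 3' part of a polyadenylated RNA. Because tag sites differ between genes, levels are compared within a gene and not between genes. The epithelial libraries held 3327164 and 3660016 reads and the fibroblast libraries 3759066 and 2423876. Levels are counts per 1e6 reads (CPM) after joint TMM scaling over the 20004 genes listed in the tables of both cell types, called joint CPM. Gene coordinates are those of GENCODE on GRCm38 (mm10). Differences are epithelium minus fibroblasts on the log2(joint CPM + 1) scale, on which changes of low genes come out too small, and stand in brackets with their standard error (SE), with Benjamini-Hochberg adjusted p-values from limma. For a gene with 0 reads in both libraries of a group, 3 reads over that group (0.461 joint CPM in epithelium, 0.485 in fibroblasts) give the bound of the fold. For a gene with 1 to 3 reads in a group, the ratio of pooled reads is given with its exact 95% interval. Floors and intervals cover counting error only. In sorted bulk samples, fewer cells of a type and less RNA per cell cannot be told apart.

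Of 13386 genes tested, 5114 (38.2%) differed at an adjusted p below 0.05. The epithelium was higher in 2853 (21.3%) and fibroblasts in 2261 (16.9%), and the median difference over all tested genes was 0.01. Both epithelial libraries lay above both fibroblast libraries in 34.1% of tested genes and below them in 31.5%, so non-overlap alone is common. Differences of 4 or more on the log2 scale were called in 406 genes on the epithelial side and 261 on the fibroblast side. Of the called genes, 389 had no read in either fibroblast library and 226 had none in either epithelial library. The numbers for gene lists below are to be read against these shares. Many list members passed the filter on low values only through the group in which they are high, so a list's count describes its members and is no test of the list.

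**Figure D1:**
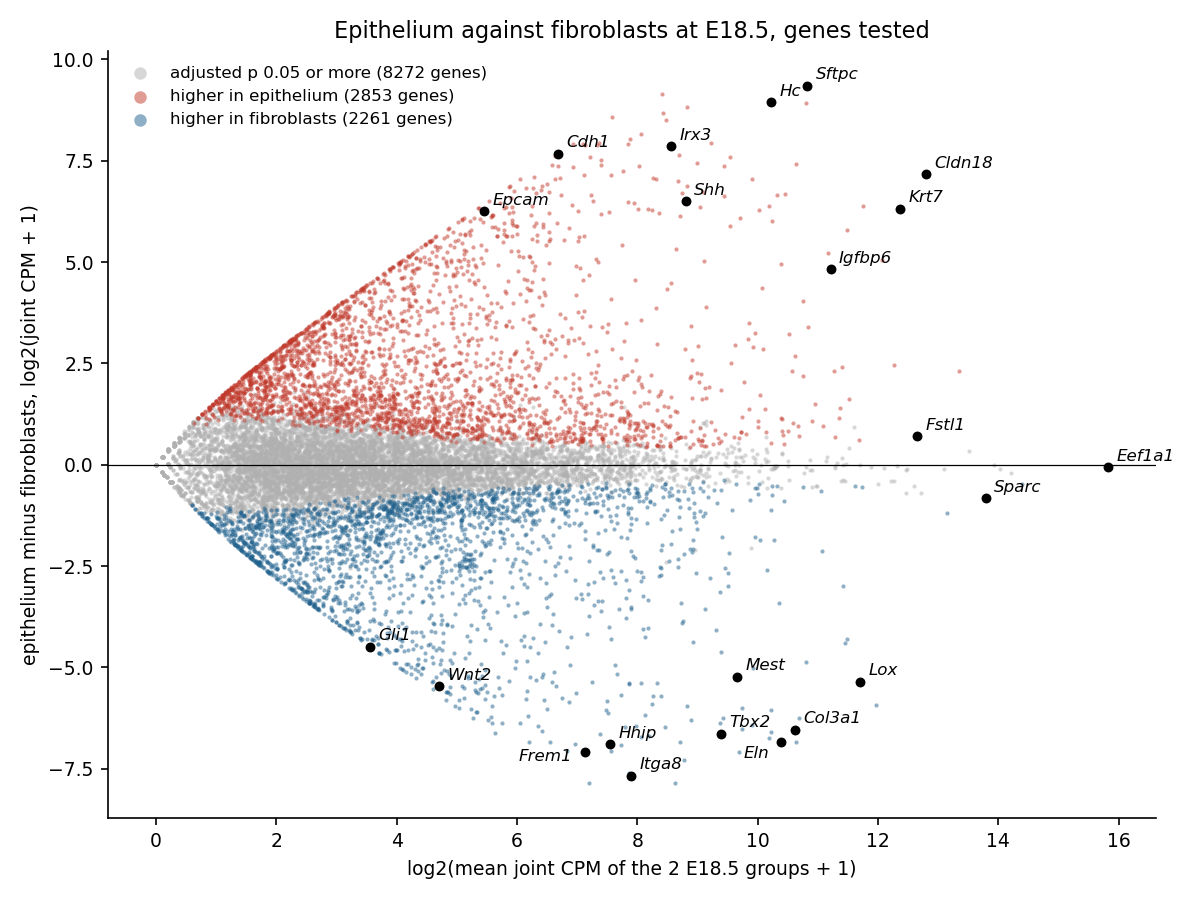
Difference between epithelium and fibroblasts at E18.5 (log2(joint CPM + 1), vertical axis) against the mean level of both groups (log2, horizontal axis) for 13386 tested genes. Red points (2853) and blue points (2261) passed the threshold on the epithelial and fibroblast side, and the outer diagonal edges hold genes with almost no reads in the other cell type.

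Epcam and Col1a2, the genes behind the positive gates, matched the labels. Epcam had 143 and 422 reads in the epithelial libraries and 0 and 0 in the fibroblast libraries. Col1a2 had 70 and 46 reads in the epithelium and 5697 and 4559 in fibroblasts. These genes selected the cells, so their differences are a check and not a result. The 2 epithelial libraries were not alike in Epcam, with 45.3 and 126 joint CPM. Pecam1, which encodes CD31, had 0 reads in all 4 libraries, and Mcam, which encodes CD146, had 6 and 5 reads against 11 and 12. Because tag sites differ between genes, the absence of Pecam1 reads cannot check the CD31 gate.

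Surfactant and lamellar body genes stood far above the fibroblast level in the epithelium. All 12 members of that list were listed and tested, and 12 were higher in the epithelium, with a median difference of 7.48 (7.63 when the gene without fibroblast reads takes its bound). Sftpc, which encodes the hydrophobic surfactant protein C (chromosome 14, 70520949 to 70524081, minus strand), was at 3967 and 3257 joint CPM in the epithelial libraries and 7.84 and 2.42 in the fibroblast libraries, a difference of 9.35 (SE 0.42, adjusted p = 2.04e-13). Sftpb, whose product organises surfactant membranes (chromosome 6, 72304610 to 72314371, plus strand), was at 3532 and 3566 against 9.46 and 4.03, a difference of 8.93 (SE 0.43). In both genes the groups were far apart, while the few fibroblast reads were unevenly divided between the fibroblast libraries. Sftpa1, the innate defence protein A, was at 202 and 190.5 joint CPM with no fibroblast read, at least 404-fold higher in the epithelium. Slc34a2, the phosphate transporter of type 2 cells, was at 347 and 309 against 0 and 0.806, a ratio of 1011-fold (95% interval 279 to 8350.2). Napsa, the protease that trims surfactant precursors, was at 262 and 279 against 0.270 and 0, a ratio of 1674-fold (95% interval 300.0 to 66146). Lpcat1, which remodels surfactant phosphatidylcholine, differed by 7.08 (SE 0.29). Summed over the list, the fibroblast libraries held 0.321% of the epithelial level.

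Other alveolar type 2 genes followed the same side. Of 19 members, 17 were tested and all 17 were higher in the epithelium, with a median of 6.15. Hc, which encodes complement C5, was at 2479 and 2309 joint CPM in the epithelium and 2.16 and 6.45 in fibroblasts (8.95, SE 0.49). The proton pump subunit gene Atp6v1c2 was at 671 and 681 against 0 and 0.403, a ratio of 4177-fold (95% interval 749 to 165028) resting on 1 fibroblast read. The organic anion transporter gene Slco4c1 was at 421 and 342 with no fibroblast read and so at least 786-fold higher. The lung chemokine gene Cxcl15 was at 819.5 and 599 against 1.08 and 0.806 (8.50, SE 0.25). Lyz1 and Lyz2 encode near-identical lysozymes, between which short tags may be split, and both were higher in the epithelium: Lyz1 was at 700.0 and 666 against 0.270 and 1.21 and Lyz2 at 164 and 139 against 0 and 0.806, a ratio of 468-fold (95% interval 129 to 3870.1). Of the genes without a test, Car8 had 76 and 77 epithelial reads and is listed in the epithelial tables only.

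Type 1 cell genes were epithelial as well. All 20 members were tested, 19 were higher in the epithelium and the median was 4.69. Cldn18, a tight junction claudin, was at 14769 and 13613 joint CPM in the epithelium and 90.3 and 105 in fibroblasts (7.17, SE 0.51, adjusted p = 2.43e-10). The water channel gene Aqp5 was at 2681 and 2874 against 32.4 and 21.0 (6.68, SE 0.31), the chloride channel gene Clic5 at 2415 and 2629 against 31.6 and 18.1 (6.66, SE 0.47) and the keratin gene Krt7 at 10777 and 10044 against 174 and 96.4 (6.32, SE 0.29). No library of the other cell type came near these values. Igfbp2, known as a marker of mature type 1 cells, was at 1.90 and 1.19 against 0.811 and 1.61, with overlapping groups and no call (adjusted p = 0.756).

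Airway cells were represented as well. Of 15 club and airway secretory genes, 8 were tested and 6 were higher in the epithelium. Cyp2f2, a cytochrome P450 of club cells, was at 123 and 107 joint CPM and Scgb1a1, the main club cell secretory protein, at 53.3 and 58.1, each with no fibroblast read (at least 237-fold and 115-fold higher). Scgb3a1 had the values 1.27 and 10.4 against 0 and 0 and did not pass (adjusted p = 0.0739). Of 15 motile cilium genes, 7 were tested and 6 were higher in the epithelium. Foxj1, the regulator of motile cilia, was at 156 and 208 against 1.89 and 0 (6.74, SE 0.48), and the tubulin-binding Tppp3 at 2039 and 2058 against 86.2 and 112 (4.37, SE 0.16). Of 12 basal and neuroendocrine genes only 4 were tested, and Uchl1 was higher in the epithelium (2.49, SE 0.27). Without fibroblast replicate 1, 1 further member was called on the fibroblast side.

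Ion and water transport genes, which govern the switch from liquid secretion to liquid absorption at birth, were epithelial in 14 of 16 tested members of 17 (median 5.35). The sodium channel subunit gene Scnn1a was at 2331 and 2417 joint CPM in the epithelium and 38.7 and 33.1 in fibroblasts (6.01, SE 0.25). Scnn1b was at 9.83 and 13.4 with no fibroblast read, at least 23.9-fold higher, and Scnn1g was at 64.7 and 71.8 against 0.270 and 0.403, a ratio of 211-fold (95% interval 58.1 to 1749.6). Channels of chloride secretion were on the same side. Slc26a9 was at 208 and 170.2 against 0.270 and 0, a ratio of 1164-fold (95% interval 209 to 46009.5), and Cftr at 98.3 and 122 against 0 and 0.806, a ratio of 342-fold (95% interval 94.3 to 2828). The sodium pump subunit gene Atp1b1 was at 9054 and 7646 against 263 and 238 (5.05, SE 0.21). Atp1b3 (0.25) and Clcn2 (-0.65) did not pass.

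Lipid synthesis genes were higher in the epithelium by smaller amounts. Of 13 fatty acid synthesis genes 12 were tested, 10 were higher in the epithelium and 1 in fibroblasts (median 1.70). The desaturase gene Scd1 was at 1813 and 1992 joint CPM against 15.1 and 11.7 (7.05, SE 0.31) and the fatty acid synthase gene Fasn at 334 and 330.0 against 22.7 and 37.5 (3.46, SE 0.27). The elongase gene Elovl6, which makes stearate from palmitate, lay on the fibroblast side at 0.317 and 0 against 14.9 and 24.6, a ratio of 122-fold (95% interval 21.5 to 4867). All 18 cholesterol synthesis genes were tested, 13 were higher in the epithelium and none in fibroblasts, with differences of 0.06 to 1.79. Of 13 tested phosphatidylcholine synthesis genes 8 were higher in the epithelium, choline kinase Chka by 2.09 (SE 0.21).

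**Figure D2:**
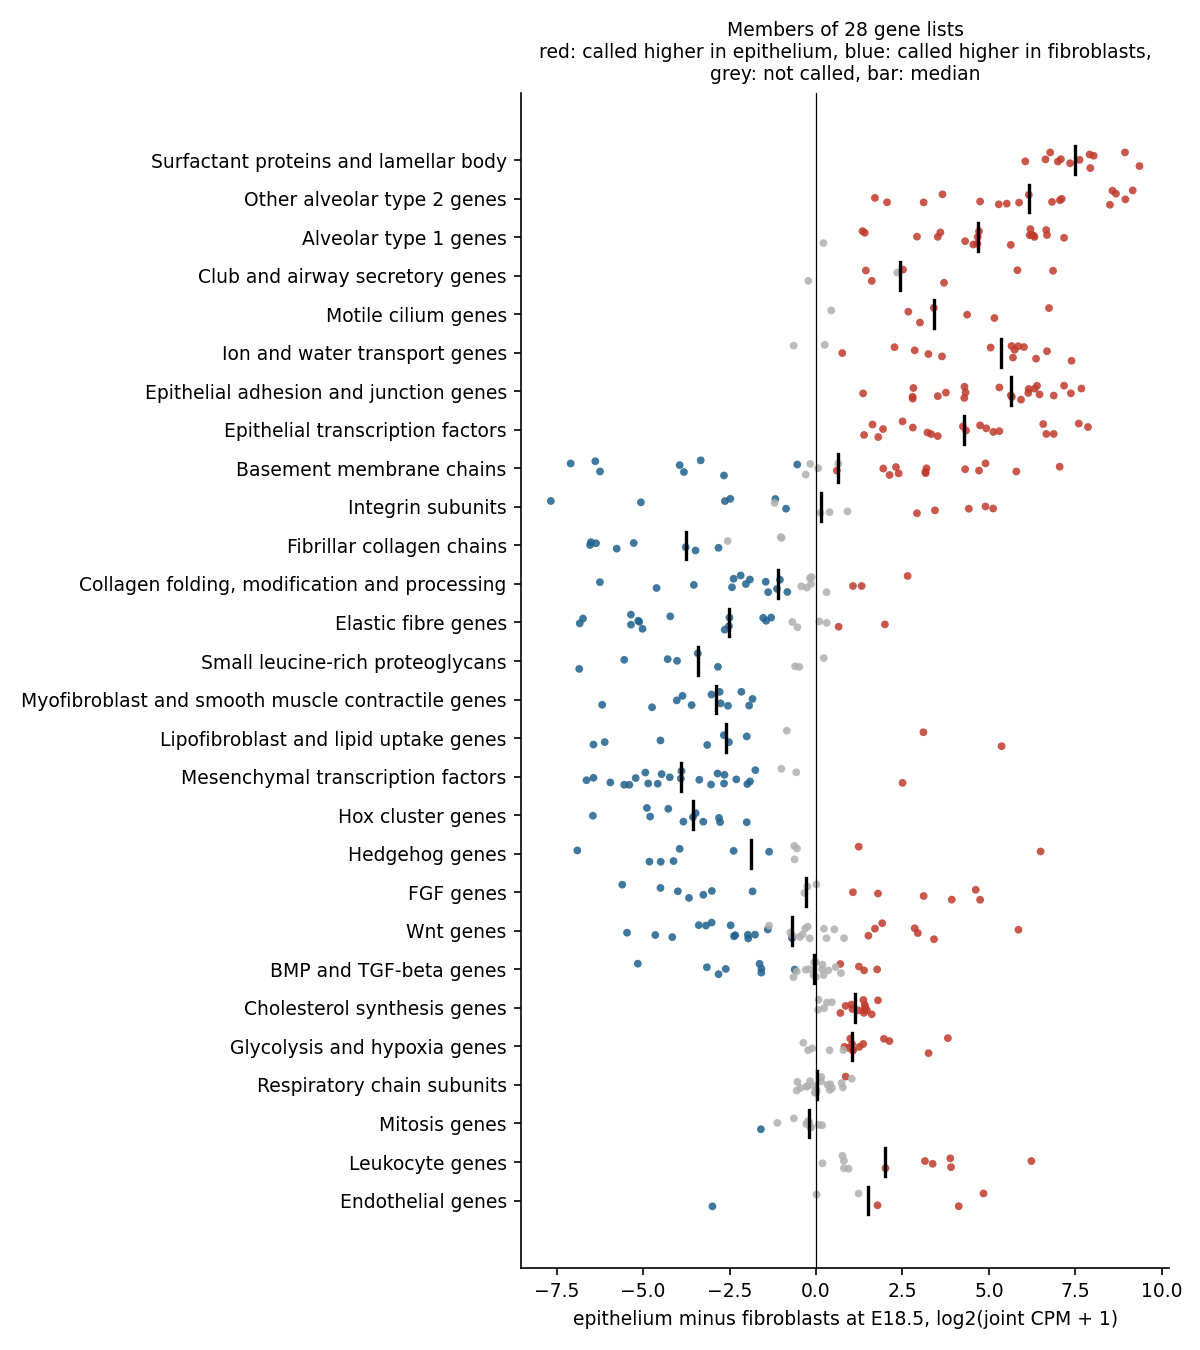
Difference between epithelium and fibroblasts at E18.5 (log2(joint CPM + 1), horizontal axis) for each tested member of 28 gene lists, 1 point a gene. Red and blue points passed the threshold on the epithelial and fibroblast side, grey points did not, and black bars are list medians, which run from 7.48 for surfactant genes to -3.89 for mesenchymal transcription factors.

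Epithelial adhesion and junction genes lay on the epithelial side without exception among those tested. Of 25 members 22 were tested and 22 were higher in the epithelium, with a median of 5.65. For 12 of them only the epithelial libraries both reached the filter level at E18.5. The list was drawn up from epithelial genes, so this count is no test of it. Cdh1, which encodes E-cadherin (chromosome 8, 106603351 to 106670246, plus strand), was at 212 and 195 joint CPM with no fibroblast read, at least 419-fold higher. The protease gene Prss8 was at 1418 and 1356 against 10.3 and 5.24 (7.37, SE 0.37), the polarity gene Crb3 at 868 and 776 against 9.73 and 11.7 (6.14, SE 0.31) and the protease inhibitor gene Spint2 at 612 and 762 against 28.9 and 37.9 (4.33, SE 0.21). The smallest difference was that of Jup, plakoglobin, which fibroblasts also contained: 188 and 145 against 65.1 and 62.1 (1.36, SE 0.22). All 4 tested keratins of simple epithelia were higher by 5.88 to 6.37, among them Krt8 at 128 and 108 against 1.08 and 0 and Krt18 at 126 and 124 against 1.08 and 1.21. The splicing regulators Esrp2 (597 and 599 against 9.19 and 4.84), Esrp1 (83.1 and 137 against 1.08 and 1.21) and Rbm47 (178 and 151 against 6.22 and 5.64), which set epithelial exon choice, were higher by 6.28, 5.65 and 4.57.

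The transcription factors known to repress such genes were on the fibroblast side. Zeb2, a zinc finger repressor of epithelial genes, was at 11.7 and 15.5 joint CPM in the epithelium and 911 and 876 in fibroblasts (-5.95, SE 0.21, adjusted p = 5.76e-15). Snai2 was at 10.5 and 12.2 against 491 and 546 (-5.40, SE 0.32) and Snai1 at 3.17 and 1.19 against 40.8 and 48.4 (-3.91, SE 0.44). Zeb1 was at 0 and 0.298 against 7.57 and 6.85, a ratio of 47.4-fold (95% interval 8.08 to 1913) that rests on 1 epithelial read.

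ZEB and SNAIL proteins bind the E-box CACCTG. Promoter windows of 250 bases before the start were taken from RefSeq (GRCm38.p6) for 27025 genes, first start listed, and 14 short motifs were searched on both strands. Besides CACCTG these were CTCAAG for NKX2-1 and its second form CACTTGA, then CAAACA for forkhead factors and a second forkhead form TGTTTAC. The others were AACCNGTT for grainyhead factors, TGANTCA for the AP-1 family, TTNNGNAA for the CEBP family, GAGGAAGT for ETS factors, GACCACCCA for GLI factors, CCAAT for the factor NFY, GGAATG for TEAD factors and, for T-box factors, AGGTGTGA together with a shorter form GGTGTGA. The T-box motif AGGTGTGA can overlap the reverse complement of CACCTG, and the shorter T-box motif lies inside the longer. CACCTG was present in 17.1% of all windows and in 15.2% of those of the 9385 tested genes that have a window. Among genes called higher in the epithelium by 4 or more it was present in 83 of 280 windows (29.6%), and among those higher in fibroblasts by 4 or more in 23 of 167 (13.8%). Of the 18 adhesion, keratin and splicing genes with a window, 8 held it. The median GC content was 58.0% for the 280 windows, 60.4% for the 167 and 60.0% for tested genes. These shares describe sets chosen by their difference and carry no test, and CACCTG was singled out of the 14 after the shares were seen. The NKX2-1 motif CTCAAG was in 14.6% and 12% of the same sets against 12.3% of tested genes. The forkhead motif CAAACA was in 15.7% and 11.4% against 11%. Among rarer motifs, CACTTGA was in 3.57% and 1.80% against 1.66%, and the grainyhead motif in 3.21% and 1.80% against 1.59%. The AP-1 motif was in 6.79% and 4.19% against 4.44%. CCAAT (31.1% and 24.6% against 35.5%) and GAGGAAGT (1.79% and 1.80% against 2.33%) were less frequent in both sets than in tested genes. Shown first are the windows of the sort gene Epcam, of Krt8, and of Crb3 and Spint2, genes of the adhesion list with the most matches (3 each), with CACCTG or its reverse complement CAGGTG in capitals. The last is the window of Sftpb, with CTCAAG and CAAACA or its reverse complement TGTTTG in capitals. A match describes letters and is not evidence of binding.
Epcam (chr17:87635729-87635978, plus strand): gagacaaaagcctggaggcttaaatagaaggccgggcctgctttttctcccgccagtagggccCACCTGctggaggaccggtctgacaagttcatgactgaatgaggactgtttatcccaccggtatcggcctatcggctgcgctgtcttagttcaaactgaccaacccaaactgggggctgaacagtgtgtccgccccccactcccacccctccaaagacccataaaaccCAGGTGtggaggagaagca
Krt8 (chr15:102004343-102004592, minus strand): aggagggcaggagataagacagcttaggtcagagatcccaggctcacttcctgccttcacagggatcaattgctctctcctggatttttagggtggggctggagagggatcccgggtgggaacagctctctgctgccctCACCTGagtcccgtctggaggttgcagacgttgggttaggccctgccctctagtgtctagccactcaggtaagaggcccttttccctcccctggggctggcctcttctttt
Crb3 (chr17:57061951-57062200, plus strand): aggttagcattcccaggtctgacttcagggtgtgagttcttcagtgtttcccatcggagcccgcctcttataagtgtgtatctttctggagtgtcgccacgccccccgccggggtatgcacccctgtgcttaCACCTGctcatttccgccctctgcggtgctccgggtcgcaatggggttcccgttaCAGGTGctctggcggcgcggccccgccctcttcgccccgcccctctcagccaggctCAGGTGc
Spint2 (chr7:29281978-29282227, minus strand): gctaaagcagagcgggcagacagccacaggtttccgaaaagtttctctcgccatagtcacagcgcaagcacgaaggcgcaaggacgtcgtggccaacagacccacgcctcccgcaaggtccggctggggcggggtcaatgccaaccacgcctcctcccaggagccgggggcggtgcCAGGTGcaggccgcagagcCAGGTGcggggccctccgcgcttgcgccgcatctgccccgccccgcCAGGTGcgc
Sftpb (chr6:72304360-72304609, plus strand): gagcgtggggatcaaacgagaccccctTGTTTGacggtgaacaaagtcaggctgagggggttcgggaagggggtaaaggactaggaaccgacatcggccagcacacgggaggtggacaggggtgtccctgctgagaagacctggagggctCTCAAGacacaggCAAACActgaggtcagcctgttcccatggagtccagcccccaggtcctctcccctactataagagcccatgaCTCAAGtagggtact

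Transcription factors divided along the same line. Of 25 epithelial factors 20 were tested and 20 were higher in the epithelium, with a median of 4.29. Nkx2-1, the factor that specifies lung epithelium, was at 1463 and 1501 joint CPM against 18.4 and 2.02 (7.60, SE 0.56). Its few fibroblast reads were nearly all in replicate 1. The Iroquois gene Irx3 was at 814 and 691 against 2.97 and 1.61 (7.86, SE 0.27), the ETS gene Elf5 at 336 and 249.8 against 0 and 7.26 (6.66, SE 0.53), and Grhl2, a regulator of junction genes, at 123 and 109.7 with no fibroblast read (at least 239.7-fold higher). Of 29 mesenchymal factors 25 were tested, 22 were higher in fibroblasts and 1, the endoderm factor Gata6 that also belongs to the epithelial list, was higher in the epithelium (2.50, SE 0.40). Tbx2, a T-box gene of lung mesenchyme (chromosome 11, 85832551 to 85841948, plus strand), was at 22.5 and 6.56 against 1224 and 1438 (-6.64, SE 0.51). Tcf21, required for lung mesenchyme, was at 7.93 and 2.68 against 441 and 557 (-6.44, SE 0.34). Of 27 Hox cluster genes 11 were tested and all 11 were higher in fibroblasts, with a median of -3.56 (-4.46 when the 5 genes without epithelial reads take their bound). Hoxb5 was at 0 and 2.38 against 164 and 156 (-6.45, SE 0.47) and Hoxa5 at 0.951 and 0 against 44.3 and 32.3, a ratio of 85.7-fold (95% interval 29.0 to 418). The 11 tested Hox genes all belong to the A and B clusters.

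**Figure D3:**
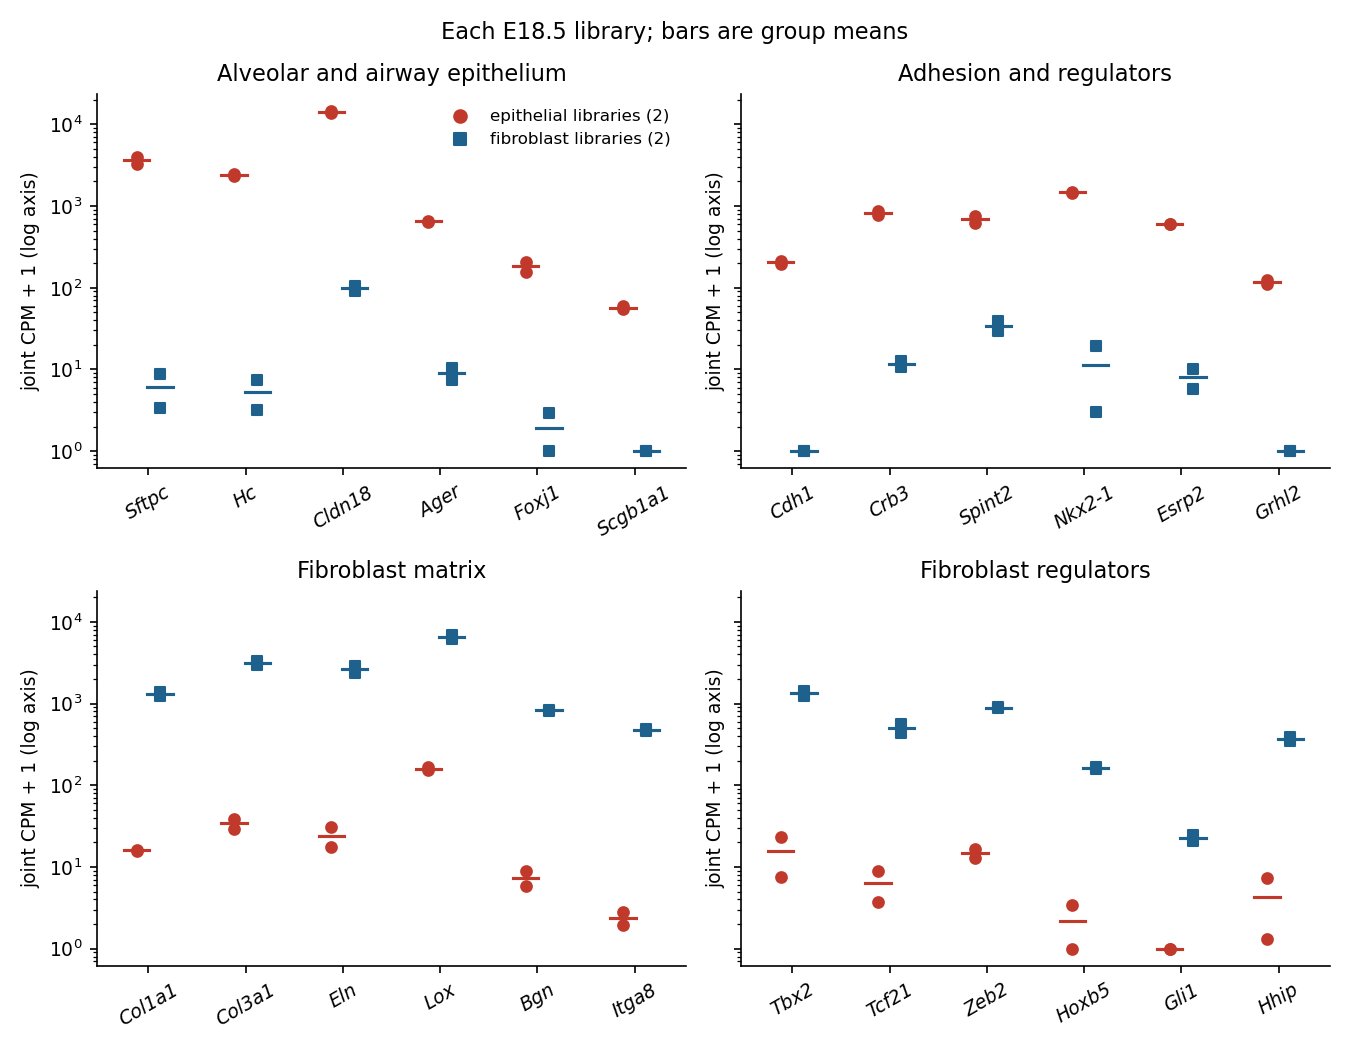
Joint CPM + 1 (log axis) of 24 genes in each E18.5 library, with red circles for the 2 epithelial and blue squares for the 2 fibroblast libraries and bars for group means. The groups do not overlap for any gene drawn, and replicates can lie apart where a gene has few reads, as for Nkx2-1 in fibroblasts (18.4 and 2.02) and Hhip in the epithelium (6.34 and 0.298).

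Fibroblasts were higher in most structural matrix genes. All 11 fibrillar collagen chains were tested and 8 were higher in fibroblasts, with a median of -3.77 (-5.18 when the 4 chains without epithelial reads take their bound). Col3a1 was at 38.0 and 28.0 joint CPM in the epithelium and 2949 and 3299.9 in fibroblasts (-6.53, SE 0.25), and Col1a1 (chromosome 11, 94936224 to 94953042, plus strand) at 14.6 and 15.2 against 1232 and 1384 (-6.36, SE 0.30). The minor chain Col24a1 was at 33.8 and 41.9 in fibroblasts with no epithelial read (at least 82.1-fold higher). Summed over the list, the epithelial libraries held 1.25% of the fibroblast level. This sum and the 8 calls include the sort gene Col1a2, at a mean of 1689 joint CPM in fibroblasts. Its difference is a check and not a result. Col2a1, the cartilage collagen, was at 0 and 0 against 33.5 and 0: its reads came from fibroblast replicate 1 only, and the difference did not pass (adjusted p = 0.105).

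The enzymes that build collagen were shared to a larger extent. Of 22 tested folding, modification and processing genes 13 were higher in fibroblasts and 3 in the epithelium, with a median of -1.09. The procollagen protease gene Adamts2 was at 79.5 and 71.0 in fibroblasts with no epithelial read, at least 163-fold higher, and lysyl hydroxylase Plod1 was at 0.317 and 1.19 against 22.7 and 15.3 (-3.53, SE 0.44). The prolyl hydroxylase subunit gene P4ha1 went the other way, at 665 and 649 in the epithelium and 298 and 328 in fibroblasts (1.07, SE 0.17). Sparc, a collagen-binding matrix protein, was abundant in both, at 10160.5 and 10189 against 16489.9 and 19818 (-0.83, SE 0.16). P4hb did not pass (0.30, adjusted p = 0.580).

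Elastic fibre genes were higher in fibroblasts in 14 of 20 tested members of 21 and higher in the epithelium in 2. Elastin (Eln, chromosome 5, 134702593 to 134747323, minus strand) was at 29.8 and 16.4 joint CPM against 2392 and 2908 (-6.83, SE 0.42). The crosslinking enzyme gene Lox was at 164 and 154 against 6188 and 6875 (-5.35, SE 0.21) and the microfibril gene Mfap4 at 19.7 and 21.5 against 2077 and 2543 (-6.74, SE 0.30). Fbln5, which guides elastin assembly, was high in both at 2442 and 2233 against 2223 and 2148 and was not called (0.10). Efemp1, at 5.39 and 4.47 against 0 and 1.21 (a ratio of 10.1-fold (95% interval 3.17 to 51.7)), and Ltbp3 (0.65, SE 0.25) were the members higher in the epithelium, and Ltbp3 did not pass under 8 of the 15 alternatives, among them leaving out epithelial replicate 1, epithelial replicate 2 or fibroblast replicate 1, each of which left 1 such member. Among 9 small proteoglycans 6 were higher in fibroblasts, led by Bgn at 7.93 and 4.77 against 811 and 841 (-6.85, SE 0.22), with Dcn at 15.5 and 19.4 against 367 and 349 (-4.29, SE 0.56). Lum (-0.61), Omd (-0.48) and Fmod (0.22) did not pass.

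Genes of fibroblast subtypes were mixed in how clearly they separated. All 12 tested contractile genes were higher in fibroblasts (15 members, median -2.91), led by the myosin kinase gene Mylk at 4.12 and 10.1 against 544 and 552 (-6.18, SE 0.41), while Acta2, smooth muscle actin, was at 4.44 and 7.15 against 22.2 and 27.0 (-1.94, SE 0.32). Of 10 tested lipofibroblast genes 7 were higher in fibroblasts and 2 in the epithelium. The lipid droplet gene Plin2 was at 193 and 199.7 against 1366 and 1146 (-2.66, SE 0.16). Cd36, the fatty acid receptor, was at 56.7 and 44.4 against 0.541 and 0, a ratio of 156-fold (95% interval 42.8 to 1291) towards the epithelium, and lipoprotein lipase Lpl at 80.5 and 97.8 against 7.30 and 12.1 (3.11, SE 0.25). Of 11 tested adventitial fibroblast genes 5 were higher in fibroblasts, Igfbp4 among them (-4.95, SE 0.38), and 4 in the epithelium (2 without fibroblast replicate 1). Dpp4 was among the latter, at 57.7 and 52.5 against 0.270 and 0, a ratio of 339.9-fold (95% interval 60.6 to 13461). Pericyte genes were higher in fibroblasts in 4 of 7 tested, at low levels: Pdgfrb was at 0.317 and 0.894 against 8.65 and 3.23 (-2.02, SE 0.44) and Rgs5, a defining pericyte gene, had 1.08 and 0 in fibroblasts.

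The basement membrane, to which both cell types contribute, was split gene by gene. Of 25 tested members of 27, 13 were higher in the epithelium and 8 in fibroblasts, with a median of 0.64. The laminin chain gene Lama3 was epithelial at 68.2 and 78.1 joint CPM against 0.270 and 0.403, a ratio of 226-fold (95% interval 62.3 to 1875), as was Lamb3 at 37.7 and 28.3 against 0.270 and 0, a ratio of 203-fold (95% interval 36.1 to 8062). The collagen IV chains Col4a3 (132 and 152 against 5.95 and 6.45) and Col4a4 (67.5 and 63.2 against 1.89 and 1.21) were epithelial too. On the fibroblast side were Lama4 at 22.8 and 12.2 against 1317 and 1378 (-6.25, SE 0.28), the linker nidogen 1 (Nid1) at 0 and 0.596 against 114 and 95.5, a ratio of 347-fold (95% interval 95.7 to 2872), and Frem1 at 0.317 and 2.09 against 237 and 319 (-7.10, SE 0.43). FREM1, FREM2 and FRAS1 form a shared complex at the basement membrane: Frem2 was higher in the epithelium at a mean of 13.3 ± 1.81 (SD, n = 2) against 0.811 and 0.403 (3.16, SE 0.35), and Fras1 was at 17.1 and 13.1 against 13.8 and 14.9, with overlapping groups (0.06). The common chains Col4a1 (-0.54, SE 0.21) and Col4a2 (0.60, SE 0.16) were called on opposite sides by small amounts.

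Integrins, the receptors for these proteins, were split as well: of 15 tested subunits 5 were higher in the epithelium and 6 in fibroblasts. Itga3 and Itga6, which pair into laminin receptors, were at 261 and 228 against 7.57 and 6.85 (4.90, SE 0.32) and 121 and 143 against 3.24 and 2.42 (5.12, SE 0.38). Itga8 was among the 12 largest fibroblast differences of genes with a mean of at least 50 joint CPM there, predicted genes left out. It was at 0.951 and 1.79 in the epithelium and 484 and 464 in fibroblasts (-7.67, SE 0.51). Its ligand nephronectin (Npnt) was at 508 and 500.5 against 583 and 658 and was not called (-0.30, adjusted p = 0.170).

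Ligands and receptors were next compared in 44 textbook pairs, of which 38 had both genes tested. In 11 pairs ligand and partner were called on opposite sides, in 10 on the same side, and in 17 at least 1 of the genes was not called. Several pairs share a gene, so the pairs are not independent.

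Hedgehog signalling was divided between ligand and response. Shh, the ligand, was at 920.0 and 847 joint CPM in the epithelium and 11.9 and 6.45 in fibroblasts (6.49, SE 0.46). Its receptor Ptch1 was at 21.2 and 32.5 against 72.7 and 65.3 (-1.36, SE 0.26) and the antagonist Hhip at 6.34 and 0.298 against 351 and 386 (-6.90, SE 0.47). Ptch1 and Hhip are also known targets of the pathway, as is the transcription factor gene Gli1, which was at 19.7 and 23.4 in fibroblasts with no epithelial read (at least 46.8-fold higher). Of 12 tested pathway genes 7 were higher in fibroblasts and 2 in the epithelium, Shh and the coreceptor Cdon (1.23, SE 0.45). Cdon did not pass under 10 of the 15 alternatives. Leaving out epithelial replicate 1, epithelial replicate 2 or fibroblast replicate 2 each left Shh as the 1 epithelial call. The transducer Smo was not called (-0.55).

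FGF ligands of mesenchyme and their epithelial receptor were also opposed. Fgf10 was at 0.951 and 0.596 joint CPM against 45.7 and 33.1 (-4.50, SE 0.33) and Fgf7 at 1.27 and 1.19 against 26.2 and 15.7 (-3.26, SE 0.43). Fgfr2, their receptor, was at 75.8 and 73.9 against 5.95 and 10.1 (3.11, SE 0.38), and Etv5, a known target of FGF signalling, at 61.2 and 59.9 against 0.541 and 2.42 (4.75, SE 0.37). The reverse held for Fgf18 (29.2 and 38.7 against 1.35 and 1.21, difference 3.93) and the receptors Fgfr4 (0.317 and 0 against 25.4 and 11.7, ratio 129.6-fold (95% interval 22.8 to 5158)) and Fgfr1 (13.3 and 12.8 against 163 and 196, difference -3.67). Over the list, 6 of 16 tested genes were higher in the epithelium and 7 in fibroblasts. Pdgfa was epithelial at 55.2 and 73.3 against 7.03 and 6.45 (3.06, SE 0.31) and its receptor Pdgfra fibroblastic at 0 and 0.894 against 11.9 and 14.1, a ratio of 27.7-fold (95% interval 9.15 to 137). Hgf had no read at E18.5 in any of the 4 libraries, while its receptor gene Met was at 83.1 and 105 against 0 and 0.806, a ratio of 291-fold (95% interval 80.2 to 2408).

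**Figure D4:**
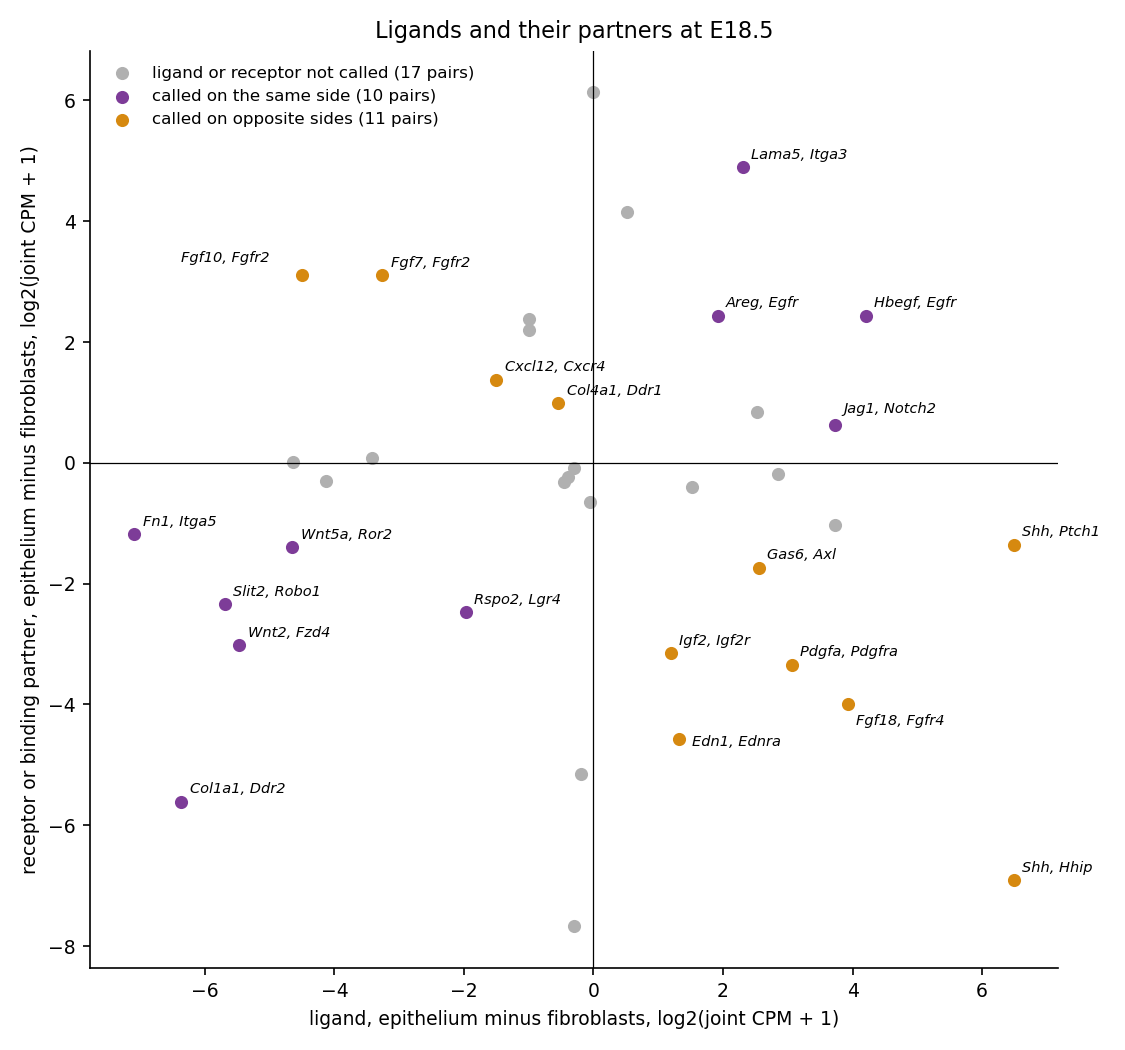
Difference between epithelium and fibroblasts at E18.5 for the ligand (log2(joint CPM + 1), horizontal axis) and for its receptor or binding partner (vertical axis) in 38 pairs. Orange points (11) lie on opposite sides of zero with both genes called, such as Shh with Hhip, purple points (10) on the same side, and grey points (17) have a gene that was not called.

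Wnt genes showed no single side: of 34 tested members of 40, 7 were higher in the epithelium and 14 in fibroblasts. Wnt2 was at 0 and 0.298 joint CPM against 43.8 and 55.6, a ratio of 316-fold (95% interval 56.3 to 12522), and Wnt5a at 1.59 and 2.09 against 69.5 and 70.1 (-4.65, SE 0.40), both fibroblast ligands here. Wnt3a was epithelial at 93.5 and 91.8 against 1.62 and 0 (5.85, SE 0.44), and Wnt7b was at 7.61 and 5.07 with no fibroblast read (at least 13.1-fold higher). Axin2, a known readout of canonical signalling, was higher in fibroblasts at 31.7 and 13.7 against 116 and 109.7 (-2.37, SE 0.31). Of 26 tested BMP and TGF-beta genes 4 were higher in the epithelium and 8 in fibroblasts. The epithelial count was 2 without epithelial replicate 1 or without fibroblast replicate 2. Bmp4 was at 18.4 and 15.2 against 19.5 and 22.2 (adjusted p = 0.496). The coreceptor Tgfbr3 had the largest difference of the list, at 7.29 and 13.7 against 403 and 381 (-5.15, SE 0.39).

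Vascular factors came from both sides. Vegfa was higher in the epithelium at 367 and 482 joint CPM against 114 and 96.8 (2.00, SE 0.23), and Figf, which encodes VEGF-D, in fibroblasts at 21.2 and 20.9 against 1674 and 2107 (-6.41, SE 0.23). Angpt1 was at 25.4 and 22.6 in fibroblasts with no epithelial read (at least 52.1-fold higher). Among IGF genes 4 of 11 were higher on each side: Igf1 was at 1.27 and 2.09 against 40.0 and 51.6 (-4.13, SE 0.31), and the binding protein gene Igfbp6 at 4424 and 4737 against a mean of 162 ± 33.1 (SD, n = 2) (4.83, SE 0.18). Of 13 tested genes of the EGF and HGF families and their receptors, Met included, 8 were higher in the epithelium and none in fibroblasts. Hbegf was at 96.7 and 152 against 7.03 and 4.43 (4.21, SE 0.33), and the receptor Erbb3 was at 15.2 and 18.5 with no fibroblast read (at least 34.7-fold higher). The Notch ligands Jag1 (3.74, SE 0.33) and Jag2 (3.48, SE 0.33) and the modifier Lfng (4.38, SE 0.41) were higher in the epithelium, in a list with 6 of 14 higher there and 3 in fibroblasts.

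Axon guidance genes, which also steer cell contact in the lung, were called in 10 of 30 tested on each side. Slit2 was at 4.12 and 11.6 joint CPM against 375 and 456 (-5.69, SE 0.35), with its receptor Robo2 also in fibroblasts at 0 and 1.49 against 90.6 and 66.9 (-5.64, SE 0.41). Sema3e (5.08, SE 0.45) and the ephrin gene Efna1 (4.28, SE 0.50) were epithelial. Of 12 tested glucocorticoid genes 3 were higher in the epithelium and 6 in fibroblasts. Hsd11b1, the enzyme that regenerates active glucocorticoid, was at 0 and 0.596 against 63.5 and 70.6, a ratio of 216-fold (95% interval 59.4 to 1789) towards fibroblasts. The receptor gene Nr3c1 was at 67.5 and 44.4 against 103 and 124 (-1.03, SE 0.26), and its known target Fkbp5 at 25.0 and 25.6 against 108 and 109 (-2.05, SE 0.35). Other known targets lay on the epithelial side, Errfi1 at 105 and 106 against 33.5 and 20.6 (1.96, SE 0.26) and Mt2 at 9.19 and 21.5 against 0.541 and 0.403, a ratio of 32.0-fold (95% interval 10.6 to 158). Of retinoid genes 3 of 13 were higher in the epithelium (1 without epithelial replicate 2 or without fibroblast replicate 1) and 4 in fibroblasts.

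Of 21 respiratory chain genes 1, Uqcrq, was higher in the epithelium (0.86, SE 0.31), and the median was 0.02. That count was 0 without epithelial replicate 2, with library totals as the only scaling and by edgeR and DESeq2, and 2 without fibroblast replicate 2. Of 10 tested mitosis genes 1, Birc5, was called (-1.59) but not by edgeR or DESeq2, while Top2a was at 23.5 and 20.3 against 16.2 and 22.6 and Mki67 at 1.90 and 4.47 against 2.97 and 4.03, with overlapping groups. Of 13 tested replication genes 2 were higher in the epithelium and 3 in fibroblasts, and leaving out epithelial replicate 1, epithelial replicate 2 or fibroblast replicate 2 left 1 on the epithelial side. Of 82 ribosomal protein genes 7 were called, all higher in fibroblasts, with a median of -0.24. That count was 1 without epithelial replicate 1 or without fibroblast replicate 1, 22 without epithelial replicate 2 and 17 with library totals as the only scaling, and short tags may be split between such genes and their pseudogenes. Glycolysis genes leaned to the epithelium in 12 of 17 tested with none in fibroblasts (median 1.04), for example Aldoa at 2845 and 2904 against 1593 and 1391 (0.95, SE 0.20) and Pkm at 60.2 and 60.8 against 13.5 and 16.1 (1.96, SE 0.22). With depth as the only scaling the median of all genes moved from 0.01 to -0.06. Of 14 glycogen metabolism genes 5 were higher in the epithelium, 3 in fibroblasts and 6 were not called (median -0.13). Glycogenin (Gyg), the primer of glycogen, was higher in fibroblasts at 10.8 and 11.9 against 377 and 384 (-4.95, SE 0.26). The phosphorylase gene Pygb was higher in the epithelium (2.79, SE 0.33).

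Imprinted growth genes were higher in fibroblasts in 9 of 16 tested and in the epithelium in 4. Mest was at 33.3 and 49.2 joint CPM against 1355 and 1779.5 (-5.23, SE 0.27) and Igf2r, which clears IGF2, at 130.0 and 137 against 1202 and 1184 (-3.15, SE 0.16). Dlk1 was at 184 and 200.0 against 25.4 and 16.1 (3.18, SE 0.37) and its neighbour Meg3, a noncoding RNA, at 1649 and 1752 against 262 and 198 (2.90, SE 0.18). H19 was at 199 and 174 against 949 and 670.5 without overlap but did not pass (adjusted p = 0.0560). Hmga1, a fetal chromatin protein gene, was higher in the epithelium at 529 and 614 against 83.0 and 60.9 (2.99, SE 0.21).

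Immediate early genes, which are known to respond to tissue dissociation, were called in 8 of 23 on each side (median 0.24). Their summed level was 13768 and 14109 joint CPM in the epithelial libraries and 11916 and 9235 in the fibroblast libraries. The count on the epithelial side was 2 without fibroblast replicate 2 and 5 without epithelial replicate 2. The count on the fibroblast side was 3 without fibroblast replicate 1, 4 without epithelial replicate 1 and 5 in a fit of the 4 E18.5 libraries alone. Atf3 was the largest epithelial difference (2.66, SE 0.30) and Nr4a2 the largest fibroblast difference (-2.84, SE 0.30). Heat shock genes summed to 16742 and 16777 against 37168 and 23113, highest in fibroblast replicate 1. Of 11, 2 were higher in the epithelium, among them Dnajb1 (0.80, SE 0.30), and 3 in fibroblasts, led by Hspb1 (-1.18, SE 0.21). The epithelial count was 0 without epithelial replicate 1 or without fibroblast replicate 2, and 1 without epithelial replicate 2. The fibroblast count was 1 without epithelial replicate 1 or without fibroblast replicate 1, 5 with library totals as the only scaling and 6 without fibroblast replicate 2.

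Of 7 MHC class II genes, which present antigen, 6 were higher in the epithelium. The median difference was 2.22, or 2.92 when the 5 genes without fibroblast reads take their bound. H2-Eb1 was at 201 and 311 joint CPM against 2.16 and 2.42 (6.25, SE 0.55) and the invariant chain Cd74 at 19.7 and 15.2 against 0.270 and 0, a ratio of 107-fold (95% interval 18.9 to 4274). Leukocyte genes moved the same way: 6 of 11 tested were higher in the epithelium, and their sum was 180.1 and 424 in the epithelial libraries against 4.87 and 23.8. The macrophage gene C1qa was at 65.9 and 173 against 1.08 and 0 (6.23, SE 0.85) and the myeloid adaptor gene Tyrobp at 29.8 and 99.6 against 1.08 and 5.64 (3.90, SE 0.67). Ptprc, which encodes the gated CD45, had 1 and 4 reads in the epithelium and none in fibroblasts. H2-Eb1, like the leukocyte sum, was higher in epithelial replicate 2, and the part of leukocytes in the class II difference was not tested. Of 17 complement and chemokine genes 8 were higher in fibroblasts and 4 in the epithelium, with Serping1, the C1 inhibitor, at 21.6 and 32.5 against 3014 and 3276 (-6.84, SE 0.25), while C3 was epithelial (2.52, SE 0.42).

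Markers of other cells gave the following levels. Of 11 endothelial genes 6 were tested and summed to 199 and 201 joint CPM in the epithelium against 34.3 and 23.4. Kdr, a VEGF receptor, was at 44.4 and 22.1 against 0.270 and 0, a ratio of 203-fold (95% interval 36.1 to 8062), and Esam, which makes up most of the epithelial sum, was at 140.4 and 171 against 8.65 and 7.26 (4.13, SE 0.24). Ramp2, a receptor partner protein gene, was higher in fibroblasts at 1.59 and 1.19 against 20.5 and 15.7 (adjusted p = 1.48e-06). In all, 3 of the 6 were higher in the epithelium and 1 in fibroblasts, while Pecam1 and Cdh5 had no read in the 4 libraries. Haemoglobin and other erythroid genes summed to 781 and 2718 against 605 and 845, highest in epithelial replicate 2. Of 6 tested, limma called none, edgeR called 1 on the epithelial side, and limma without epithelial replicate 1 called 2. The haemoglobin genes are near-identical copies between which tags may be split. Of 3 tested cardiac and neural genes 2 were higher in the epithelium and 1 in fibroblasts. Myh6, the cardiac myosin gene, was at 43.4 and 37.6 with no fibroblast read (at least 83.4-fold higher), and the neuronal tubulin gene Tubb3 was at 3.17 and 9.54 against 0.541 and 0, a ratio of 19.9-fold (95% interval 5.19 to 170.0). The cardiac actin gene Actc1 lay on the fibroblast side at 0.634 and 0 against 13.2 and 0.806, a ratio of 26.9-fold (95% interval 7.06 to 228) with most reads in fibroblast replicate 1. It was not called without fibroblast replicate 1, without epithelial replicate 2, in a fit of the 4 libraries alone, with a pseudocount of 4 or with no filter. Of mesothelial genes, Msln was epithelial at 418 and 419 against 8.65 and 8.87 (5.43, SE 0.52) and Upk1b fibroblastic (-4.50, SE 0.36), while Lrrn4 and Upk3b had no epithelial read. The part of such cells in other results was not tested. Xist, expressed from the inactive X chromosome of females, was at 377 and 356 in the epithelium and 1431 and 1622 in fibroblasts (adjusted p = 0.180). Xist was called higher in fibroblasts in a fit of the 4 E18.5 libraries alone. The Y-linked genes Ddx3y, Eif2s3y, Kdm5d and Uty are listed in the epithelial tables only, with 9 and 17, 5 and 7, 78 and 30, and 19 and 6 reads, so for sex-linked genes the sex of the embryos and the cell type cannot be told apart.

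The last comparison asked whether the difference at E18.5 departed from the mean of the differences at P0.5, P2, P7 and P28. It did for 1259 of 13386 genes (9.41%), towards the epithelium at E18.5 in 792 (5.92%) and towards fibroblasts in 467 (3.49%). With library totals as the only scaling the split was 661 and 604. Leaving out 1 library lowered the counts, to 427 and 258 without fibroblast replicate 2, 510 and 292 without epithelial replicate 1, 505 and 332 without epithelial replicate 2, and 646 and 273 without fibroblast replicate 1. Of the 5114 genes called at E18.5, 4839 had the same sign in the mean of the later stages. The direction of a departure is relative to later stages. Of the 792 genes, 481 were called higher in the epithelium at E18.5, 96 were higher in fibroblasts and 215 were not called. Of the 467 genes, 262 were called higher in fibroblasts at E18.5, 74 were higher in the epithelium and 131 were not called. Across genes, Pearson's r of the E18.5 difference with that of another stage was 0.870 at P0.5, 0.842 at P2, 0.837 at P7 and 0.762 at P28, over 13386 genes, which are not independent replicates.

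Fstl1, a secreted BMP antagonist, departed most. It was at 8323 and 7523 joint CPM in the epithelial libraries and 4317 and 5493 in the fibroblast libraries at E18.5, higher in the epithelium (0.70, SE 0.19). At P28 it was at 15.9 ± 2.05 (SD, n = 2) against 4627 ± 988, and the mean later difference was -4.03, so the E18.5 difference departed by 4.74 (SE 0.22, adjusted p = 8.28e-12). Igfbp6 went in the epithelium from 4581 ± 222 at E18.5 to 435 ± 55.4 at P7, while fibroblasts went from 162 ± 33.1 at E18.5 to 3364 ± 213 at P28, a departure of 4.40. The extracellular superoxide dismutase gene Sod3 (4.54) and the globin gene Cygb (4.53) departed towards the epithelium. Sod3 was at 2.56 ± 0.201 in fibroblasts at E18.5 and 312 ± 37.0 at P28. Msln went from 419 ± 0.634 in the epithelium to 2.18 ± 1.59 at P28 (4.01). The E18.5 level of C1qa, with its wide spread between the epithelial libraries, gave a departure of 4.10 (adjusted p = 0.00805).

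In the other direction Shisa6 was a fibroblast gene at E18.5, at 0.317 and 0 against 89.2 and 68.1, a ratio of 526-fold (95% interval 93.9 to 20802). At P28 it was at 15.7 ± 1.22 in the epithelium with no fibroblast read, a departure of -4.48. Scgb3a1 departed by -4.02 and was at 3963 ± 1449 in the P28 epithelium. The peptidase genes Enpep (-3.18) and Mme (-2.92) had their lowest epithelial group mean at E18.5, 9.87 ± 1.73 and 3.83 ± 0.485. Several surfactant genes were less separated at E18.5 than later: 5 of 12 departed, all downward, including Sfta2 (-2.87), Sftpd (-1.95) and Sftpa1 (-1.56), whereas Sftpc (adjusted p = 0.205) and Sftpb (adjusted p = 0.117) did not pass. Basement membrane genes departed towards the epithelium in 9 of 25, Col15a1 (4.02) among them. Col15a1 was at 7.97 ± 7.69 in the epithelium and 1.22 ± 1.72 in fibroblasts at E18.5, with a wide spread between replicates. At P28 it was at 1.22 ± 0.226 in the epithelium and 81.7 ± 8.07 in fibroblasts. Immediate early genes departed in 11 of 23, all towards the epithelium at E18.5 relative to later stages. At E18.5 itself 8 of the 23 were called on each side. Whether the 11 departures hold when 1 library is left out was not tested. Of 7 MHC class II genes 5 departed downward, Cd74 by -2.16.

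**Figure D5:**
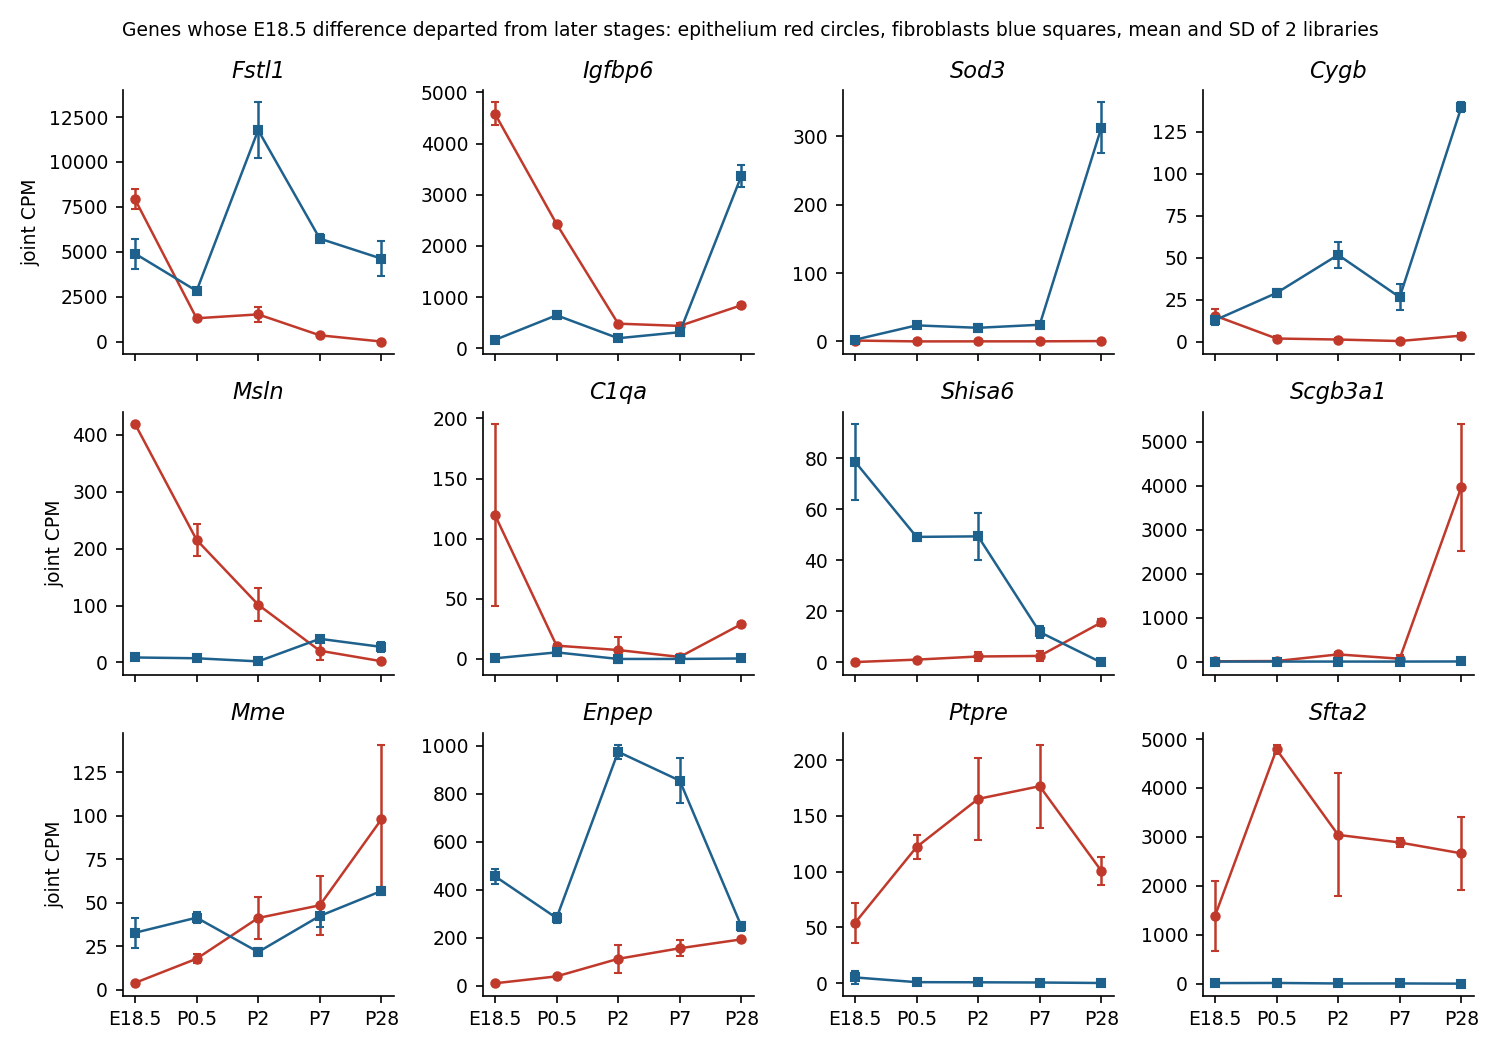
Joint CPM (linear axes, which differ between panels) at 5 stages for 12 genes whose E18.5 difference departed from later stages, red circles for epithelium and blue squares for fibroblasts, mean and SD of 2 libraries. Fstl1 and Igfbp6 start high in the epithelium at 7923 ± 566 and 4581 ± 222 and are lower at every later stage, while Sfta2 and Ptpre in the epithelium have their lowest mean at E18.5.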

How the data were processed

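The deposited tables give, per the file headers, 1 signal value per gene and library. The authors aligned tags with Bowtie2 2.2.5 to mm10 and used R 3.4.0, per the submitters' processing notes. How tags were counted and scaled is not stated by the labels or headers. Every deposited signal value was a whole multiple of its library's smallest step (100% within 0.01 of a read), so reads were recovered. Over the 20004 genes listed for both cell types, reads of 20 libraries were scaled with TMM (edgeR 4.0.16) and log2(joint CPM + 1) was fitted with limma 3.58.1 (trend, R 4.3.3, 1 mean per cell type and stage) for genes at 3 joint CPM or more in at least 2 libraries. The P56 fibroblast library has no epithelial partner and was left out. Tests were two-sided with Benjamini-Hochberg adjustment at 0.05 over 13386 genes. On the recovered counts, edgeR's quasi-likelihood test called 4901 genes (2738 higher in epithelium, 2163 in fibroblasts), and DESeq2 1.42.0 was a further alternative. The other alternatives changed the pseudocount, filter or scaling, blocked on replicate number, fitted 4 libraries alone or left out 1 library. On simulated counts for this comparison with 13386 genes, 69 of 100 genes changed 4-fold and 27 of 100 changed 2-fold were recovered, and 27 of 27 at 50 CPM or more for 4-fold. Replicates differed beyond sampling noise (chi-square per degree of freedom 7.74 and 6.73).

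The members and gene lists were chosen with earlier results of these data known. Named were the sort genes, the 12 largest called differences in each direction and the 6 most abundant genes per group, up to 6 called, 3 minority and 3 uncalled members of each list, all pair genes, the 10 largest stage departures in each direction and the 6 highest genes listed for 1 cell type. Outside that rule, Acta2, Aldoa, Atp1b1, Axin2, Col4a2, Col4a3, Col4a4, Crb3, Efna1, Fras1, Frem2, Jup, Lyz2, Mki67, Nr3c1, Plin2, Scnn1b, Scnn1g, Sftpd, Snai1, Spint2, Zeb1, Car8 and the Y-linked genes were chosen after their values were seen. Some list members are not reported here by name.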

Additional observations from a re-analysis of the deposited data

Results flagged for a closer look

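The genes below had an E18.5 difference that departed from the mean later difference by limma, adjusted over all genes tested, and are the largest such departures in each direction. Towards the epithelium at E18.5 the departures were 4.74 for Fstl1, 4.54 for Sod3, 4.53 for Cygb, 4.40 for Igfbp6, 4.28 for Tecrl, 4.10 for C1qa, 4.02 for Col15a1, 4.01 for Msln, 3.95 for Ccl2 and 3.88 for Mslnl, on the log2 scale. Towards fibroblasts they were -4.48 for Shisa6, -4.02 for Scgb3a1, -3.53 for Alb, -3.19 for Wipf3, -3.18 for Enpep, -2.98 for Ptpre, -2.92 for Mme, -2.89 for Il16, -2.87 for Sfta2 and -2.82 for Snhg11.

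Genes listed for 1 cell type only entered no test. Of 3865 genes listed in the epithelial tables alone, 1342 had a read at E18.5 and 142 a mean of 3 or more CPM of their own library. With predicted genes left out, the highest were Cdhr3 at 53.1 CPM, Cfap52 at 47.6, Dnah3 at 47.1, Sprr2k at 37.3, Ccdc151 at 35.6 and Lhb at 33.3. Of 1166 genes listed in the fibroblast tables alone, 370 had a read and 11 a mean of 3 or more. Chodl at 35.0, Mchr1 at 8.91, Egfem1 at 8.65, Plg at 3.53, Aspa at 3.32 and Jph2 at 3.32 were the highest there, again without predicted genes.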

How the results depend on the processing

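The counts over all genes at E18.5, in total and by direction, stayed within 1.5 times under all 15 alternatives. Counts of single lists could move by more. Collagen processing genes higher in the epithelium went from 3 to 1 with the filter on the 4 E18.5 libraries. Of 368 called genes among the 517 named, 302 kept their call under every alternative that tested them, 66 lost it under at least 1 and none reversed. Stricter filters left some named genes untested. With the replicate number as a block, Xist was called higher in fibroblasts and 2 erythroid genes were called. The count of stage departures, 1259 (792 towards the epithelium, 467 towards fibroblasts), ranged from 685 to 919 when 1 E18.5 library was left out, with 427 to 646 and 258 to 332 by direction. With 1 library left in a group, that library is assumed to vary like the other groups. Replicate numbers are shared between groups in the labels, but same-numbered samples did not deviate together (correlations from -0.0546 to 0.0996 over the 5 stages). With the replicate number as a block, 5107 genes were called at E18.5 (2848 and 2259) and 1139 departed (730 and 409). The count of departures also moved with the pseudocount, to 962 (626 and 336) at 0.25 and 1650 (1030 and 620) at 4. Of 4-fold changes at 3 to under 10 CPM, simulated among mostly unchanged genes, 19 of 46 were recovered, against 27 of 27 at 50 CPM or more.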
